A study of Mus musculus with 14 samples.

Results

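The genes described here encode the microtubule motors and their closest partners: kinesin heavy chains (Kif and Kifc genes), the kinesin light chains (Klc) and the kinesin-2 partner Kifap3, the subunits of cytoplasmic dynein (Dync and Dynl), dynactin subunits 1 to 6 (Dctn) and the dynein regulators Ndel1, Nde1 and Pafah1b1. They were chosen by a rule on gene symbols, set with earlier results of these data known, which gave 72 of the 55401 genes in the count table. RNA came from 14 tubes, each with 4 to 5 EGFP-labelled PiC neurons of wild-type C57BL/6 mice, amplified with the SMART-Seq2 kit. The cells had been labelled by AAVretro-EGFP, a virus taken up at axon endings and carried back to the cell body, placed in either PrL or MeA, and all groups carried the virus. PiC-PrL neurons came in 4 tubes from females and 4 from males, and PiC-MeA neurons in 3 tubes from each sex, where the second name is the injected target. PiC, PrL and MeA are written as in the labels. Neither the age of the mice nor the promoter of the EGFP gene is stated by the labels used. Nothing in the labels ties each tube to an animal of its own, so p-values measure only the spread between these samples, which may be technical.

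Kinesins and dynein are motor proteins that move along microtubules by using ATP. In axons, where microtubules point their plus ends away from the cell body, most kinesins carry organelles, vesicles and proteins outward, and cytoplasmic dynein, joined to dynactin, carries them back. A virus that labels a neuron from its axon ending travels on the same retrograde route. Other kinesins build the mitotic spindle or trim microtubule ends, and are best known from dividing cells.

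Library totals ran from 6132985 to 15392217 counts. The 3 male PiC-MeA libraries stood apart: they held 18964 to 20014 genes with a count, against 12479 to 14908 in the other 11, and 204 to 268 of 1117 olfactory receptor genes with a count, against 39 to 78. Levels of single genes are given as CPM, counts scaled to a common library size with TMM factors, which ran from 0.699 to 1.28. CPM sums over gene lists, here and below, were scaled by the library total alone, without these factors. The 2 scales therefore differ somewhat. Among 7 pan-neuronal markers, 6 had counts, with sums of 9204 to 11569 CPM in PiC-MeA and 10404 to 16037 CPM in PiC-PrL. The other pan-neuronal marker, Tubb3, is listed at 0 in every library. In tubes of pooled cells, fewer cells of a type and less RNA per cell cannot be told apart.

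Motor genes took 0.605 to 0.806% of the counts of a library. Of the 72, 28 reached 10 counts in all 14 libraries, 35 did so in 1 to 13 libraries and 9 in none. Kif12, Kif2b, Kifc5b and the dynactin subunit gene Dctn3 are listed at 0 in every library. The low-count filter kept 58 of the 72 for testing, all 28 of the first class and 30 of the second.

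**Figure D1:**
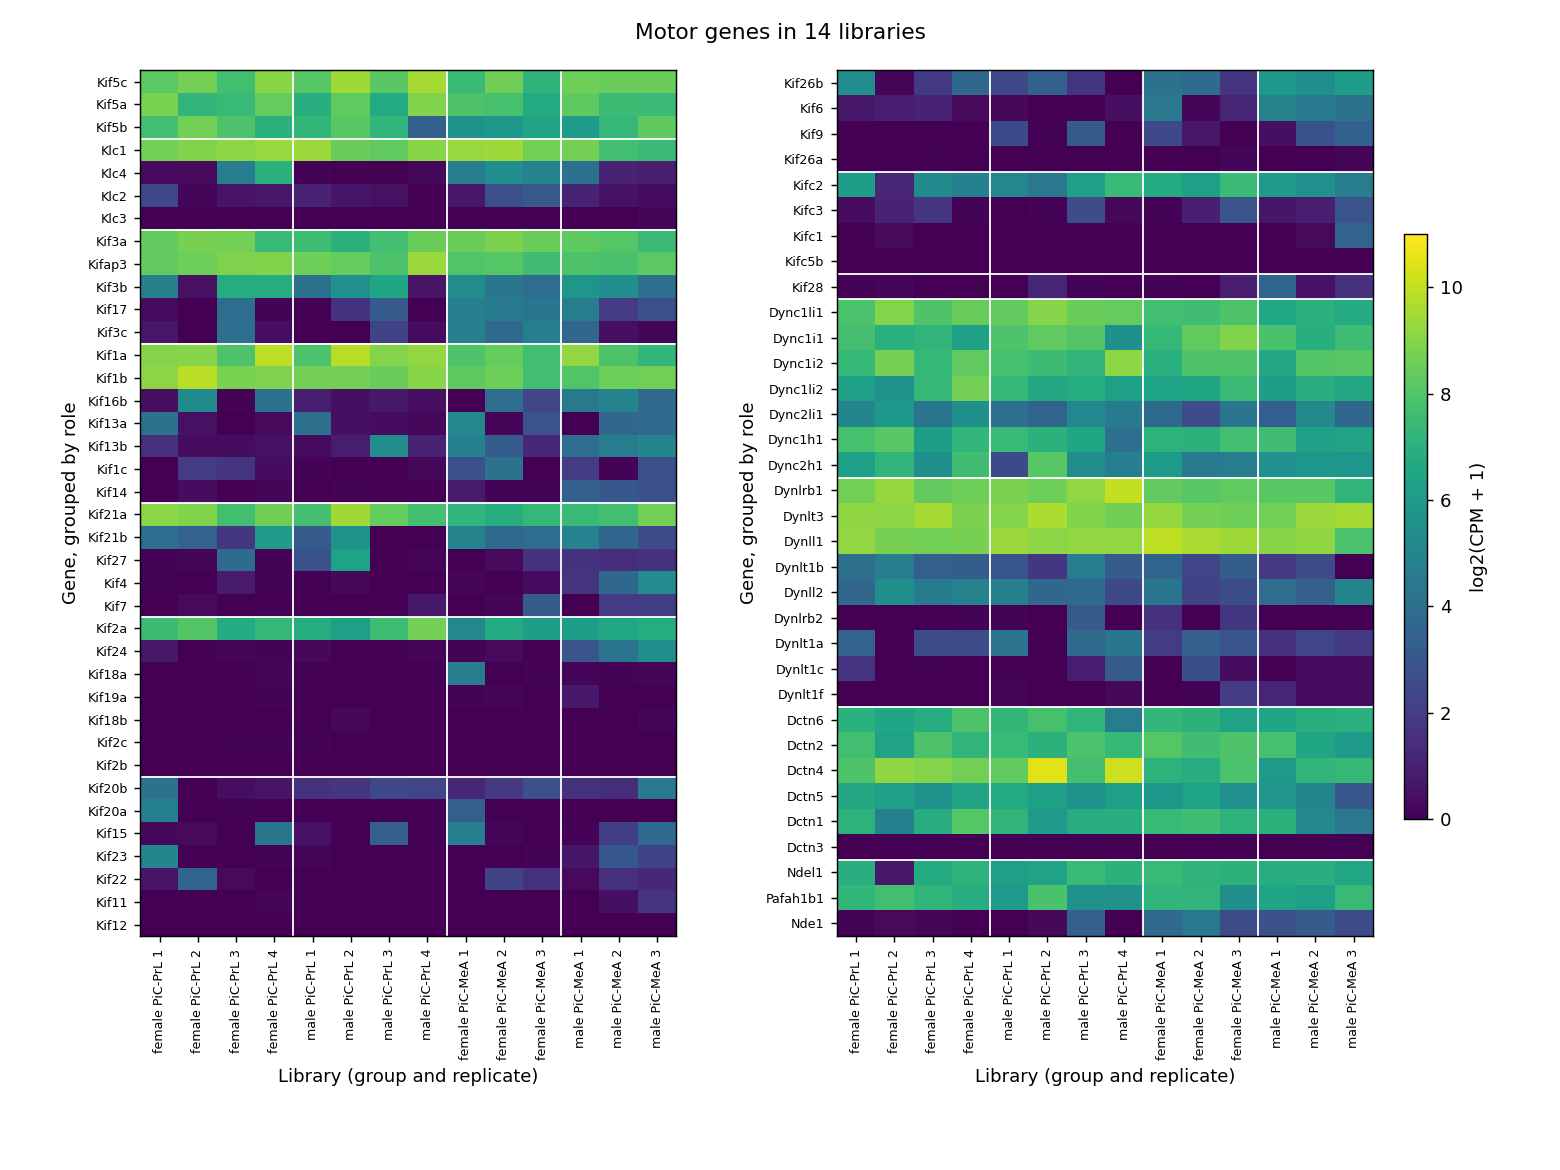
Level of each motor gene (rows, grouped by role, white lines between roles) in each library (columns, white lines between groups) as log2(CPM + 1). The 28 genes with at least 10 counts everywhere form the bright rows, and the 35 genes with 10 counts in 1 to 13 libraries are broken rows whose bright cells lie in different libraries.

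On a scale corrected for exon length (TPM, in which the values of a library share one fixed sum), dynein subunits summed to 3013 ± 414 TPM (SD, n = 14), kinesin heavy chains to 1132 ± 187 TPM and the 6 dynactin genes to 485 ± 132 TPM. Small dynein light chains led the whole set. Dynlrb1, a roadblock light chain, averaged 1193 TPM, Dynlt3, a Tctex light chain, 659 TPM, and Dynll1, an LC8 light chain that also binds many proteins outside dynein, 465 TPM. They were followed by the kinesin light chain gene Klc1 (348 TPM), the kinesin-2 motor Kif3a (262 TPM) and its partner Kifap3 (253 TPM). The dynein chain genes Dync1li1 (206 TPM) and Dync1i1 (191 TPM), Kif5c (156 TPM), Dctn6 (142 TPM), Kif1a (141 TPM) and Kif21a (139 TPM) came next.

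**Figure D2:**
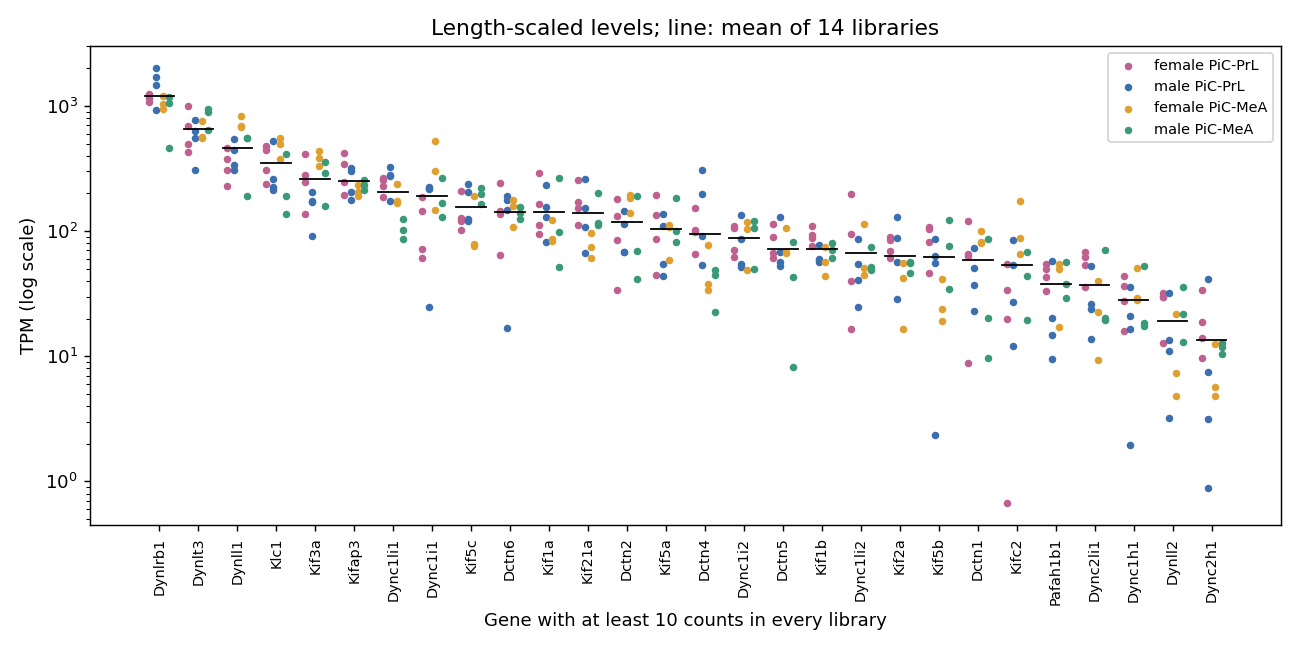
TPM on a log scale (y axis) of the 28 motor genes with at least 10 counts in every library (x axis, ordered by mean). Points are libraries coloured by group and black lines are means of 14 libraries. Dynlrb1 leads with a mean of 1193 TPM, and Kifc2 spans the widest range.

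Spread between libraries was wide even for well-covered motor genes. Dynlt3 was the steadiest of the 28, with a highest level 2.14 times its lowest. Kif5b (43.5 times), the dynein-2 heavy chain gene Dync2h1 (62.2 times) and Kifc2 (137 times) varied most. The dynein-1 heavy chain gene Dync1h1, which encodes the motor subunit itself, spanned 18.5 times, from 15.1 CPM in male PiC-PrL replicate 4 to 281 CPM in female PiC-PrL replicate 2.

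Shares of TPM within each family gave the balance between closely related motor mRNAs. Of the kinesin-1 heavy chains, which carry mitochondria, vesicles and cytoskeletal proteins, Kif5c held 48.0% ± 8.90 (SD, n = 14), Kif5a 31.9% ± 10.9 and Kif5b 20.1% ± 11.6. Kif5a and Kif5c are known as the neuronal forms and Kif5b as the form found in most cells. The Kif5b share was lowest in male PiC-PrL replicate 4, at 0.682%, and highest in female PiC-PrL replicate 2, at 39.0%. Klc1 held 94.8% ± 7.43 of the light chain TPM, and its lowest share, 73.6%, was in female PiC-PrL replicate 4, where Klc4 held 26.3%. Kif3a made up 88.4% ± 8.59 of the kinesin-2 motor TPM, beside 8.98% for Kif3b. In the KIF1 group of kinesin-3, which carries synaptic vesicle precursors and dense core vesicles, Kif1a held 62.8% ± 12.5 and Kif1b 36.5% ± 12.2. Within dynein, Dync1i1 held 64.0% ± 20.7 of the intermediate chain TPM, Dync1li1 75.6% ± 11.2 of the light intermediate chain TPM and Dynll1 95.0% ± 4.55 of the LC8 TPM.

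**Figure D3:**
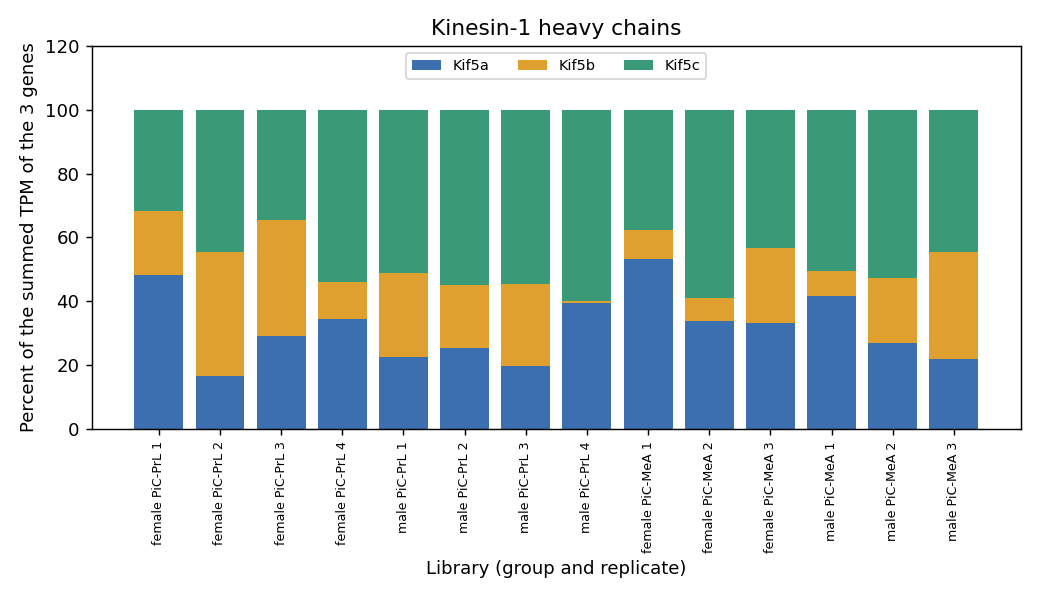
Share of Kif5a, Kif5b and Kif5c in their summed TPM (y axis, percent) in each library (x axis). Kif5c is the largest share in 11 of 14 libraries, and Kif5b runs from 0.682 to 39.0%.

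The first question of the design is how the neurons that reach MeA differ from those that reach PrL. Averaged over both sexes, 2 motor genes fell in PiC-MeA and 0 rose: the dynactin subunit gene Dctn4 and the dynein light intermediate chain gene Dync1li1. Both belong to the retrograde motor, where Dctn4 sits at the pointed end of the dynactin filament and Dync1li1 joins the dynein heavy chain to cargo adaptors. Over all 14599 genes tested, 1.13% were called in this comparison (edgeR quasi-likelihood test, Benjamini-Hochberg adjusted p under 0.05), with 0.843% lower and 0.288% higher. Of the 123 lower calls, 120 were among the 3897 genes with 10 counts in all 14 libraries, the class to which both motor genes belong. Both calls are near the threshold and most leave-one-out fits lose them, as given below for each gene.

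Dctn4 had 248, 574, 498 and 401 CPM in female PiC-PrL, 323, 1455, 214 and 1148 in male PiC-PrL, 138, 114 and 234 in female PiC-MeA and 62.8, 151 and 162 in male PiC-MeA. The 3 male PiC-MeA libraries were all below every PiC-PrL library. In females the PiC-MeA values were also all below the PiC-PrL values, but female PiC-MeA replicate 3, at 234 CPM, lay above male PiC-PrL replicate 3, at 214 CPM, so that the pooled projections overlapped. Male PiC-PrL was split, with replicates 2 and 4 at 1455 and 1148 CPM. The averaged log2 fold change was -2.03 ± 0.43 (SE), with an adjusted p of 0.0307 in edgeR's quasi-likelihood test. In males alone it was -2.65 ± 0.62 with an adjusted p of 0.0583, and in females -1.41 ± 0.59 with an adjusted p of 0.397, so neither sex passed alone. On the TPM scale the group means were 105 ± 36.4 and 162 ± 114 in female and male PiC-PrL, and 49.8 ± 24.1 and 38.4 ± 14.1 in female and male PiC-MeA.

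The averaged Dctn4 call held in 5 of the 14 fits that left out 1 library, with adjusted p from 0.0131 to 0.0466. It was lost in the other 9, with adjusted p from 0.0525 to 0.0751: those without female PiC-PrL replicates 2 or 3, male PiC-PrL replicates 2 or 4, female PiC-MeA replicates 1 or 2, or any 1 of the 3 male PiC-MeA libraries. With the replicate number as a block the adjusted p was 0.0937. With detected genes per library as a covariate it was 1.0 and the log2 fold change was -1.08.

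Dync1li1 had 234, 500.1, 248 and 349 CPM in female PiC-PrL, 328, 515, 372 and 338 in male PiC-PrL, 201, 197 and 239.8 in female PiC-MeA and 96.2, 129 and 107 in male PiC-MeA. The gene (ENSMUSG00000032435.9) lies on chromosome 9 from 114688790 to 114724302, plus strand, in GENCODE M21 on GRCm38. Its male PiC-MeA values were the lowest 3 of the 14, and they did not overlap the male PiC-PrL group or the female PiC-MeA group. In females the projections overlapped, since female PiC-PrL replicate 1 was at 234 CPM and female PiC-MeA replicate 3 at 240 CPM. The difference was -1.81 ± 0.39 on the log2 scale in males (edgeR adjusted p = 0.0362) and -0.64 ± 0.39 in females (adjusted p = 0.564). It was the 1 motor gene called in males, where 0.74% of all genes were called, 0.678% lower and 0.0616% higher. The averaged difference was -1.23 ± 0.27 with an adjusted p of 0.0370 by the same test. Whether the projection difference was larger in males was tested directly and was not called (log2 difference -1.16 ± 0.52, edgeR adjusted p = 0.283). On the TPM scale the means were 233 ± 34.9 and 264 ± 63.4 in female and male PiC-PrL, 193 ± 39.4 in female PiC-MeA and 105 ± 19.2 in male PiC-MeA.

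Without 1 library, the averaged Dync1li1 call held in 3 of 14 fits (adjusted p 0.0412 to 0.0429), those without female PiC-PrL replicate 1, female PiC-PrL replicate 3 or male PiC-PrL replicate 1. It was lost in 11 (0.0521 to 0.103), that is without any other library. In males the call held in 6 of 14 (0.0271 to 0.0478) and was lost in 8 (0.0538 to 0.139). Those 8 were the fits without male PiC-PrL replicates 2, 3 or 4, female PiC-MeA replicates 1 or 2, or any 1 male PiC-MeA library. The replicate block gave adjusted p of 0.101 averaged and 0.0639 in males, and the covariate 1.0 for both, with log2 fold changes of -0.61 and -0.65. DESeq2 size factors in edgeR also ended the averaged call (adjusted p = 0.0541) but kept that in males. With no low-count filter edgeR gave 0.0927 averaged and 0.116 in males. Beside both genes stands the pan-neuronal list, whose sums are given above: 5 of its 6 tested genes had negative averaged differences and Snap25, a synaptic marker, also passed (edgeR adjusted p = 0.0290). Well-covered genes of any kind were also mostly negative in this comparison, as given below, so these signs do not show a shift of the list's own. In males the sums of that list did not overlap, at 9204 to 11569 CPM in PiC-MeA and 13397 to 15823 CPM in PiC-PrL. Detected-gene number was highest in the male PiC-MeA libraries, so the covariate fit cannot tell it apart from that group. The part of detected-gene number and of neuronal marker level in the Dctn4 and Dync1li1 results was not tested beyond these fits.

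**Figure D4:**
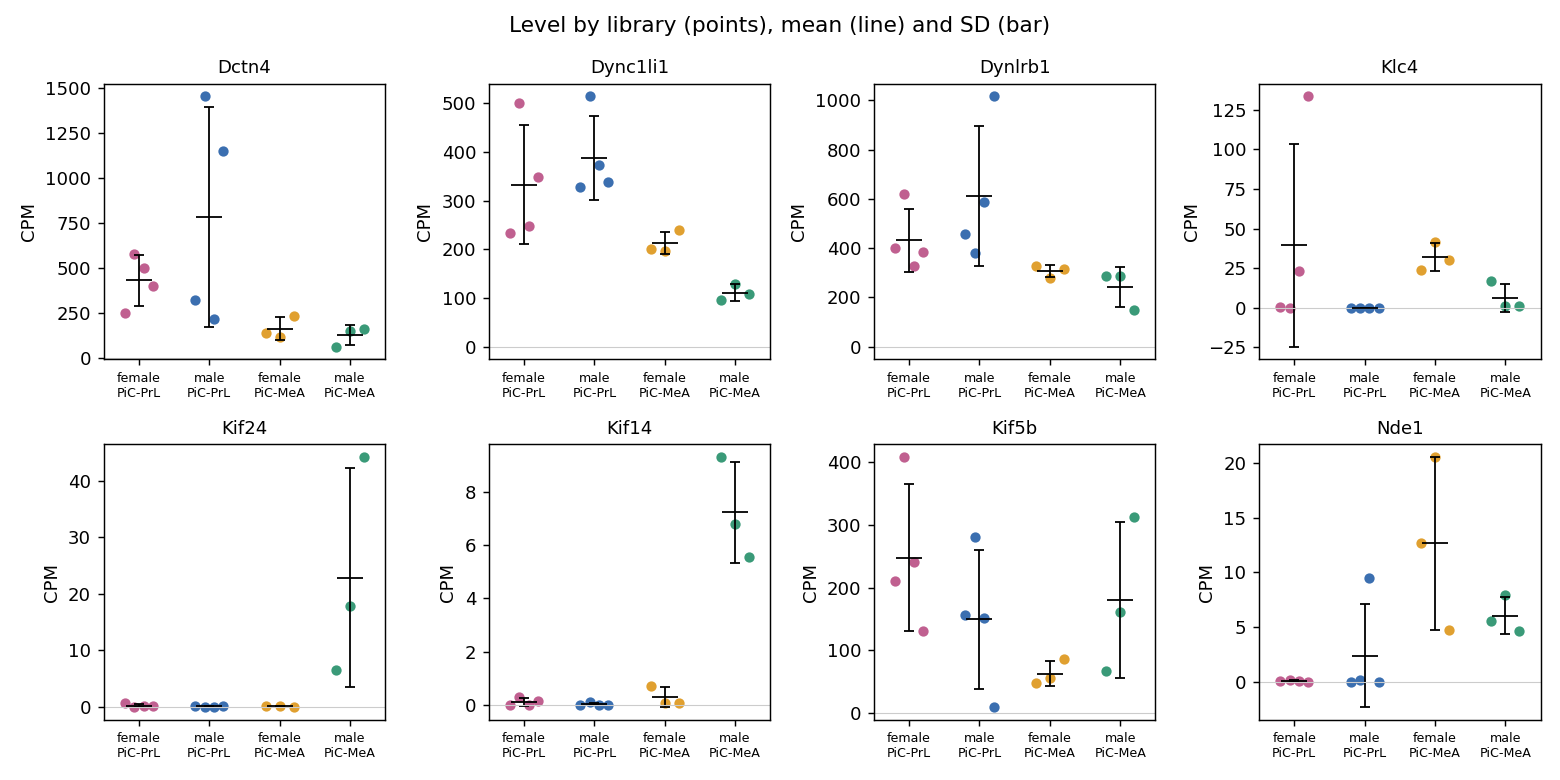
CPM (y axis, linear, a separate scale for each gene) of 8 motor genes in the 4 groups (x axis). Points are libraries, horizontal lines means and bars SD. Dctn4 and Dync1li1 are low in PiC-MeA, Kif24 and Kif14 reach at least 6.43 and 5.56 CPM in the 3 male PiC-MeA libraries and at most 0.658 and 0.717 CPM in the other 11, and Klc4 and Nde1 are scattered between libraries of a group.

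Promoters of 3 genes are printed to show what lies before the start of a called gene, of the most abundant one and of a kinesin with counts mainly in 1 group. They were picked after their values were seen. The sequences are from RefSeq on GRCm38.p6 (the mm10 build of the counts), in the sense of the gene, and cover 200 bases from 250 to 51 before the start of the RefSeq transcript. That start lies inside the GENCODE gene for Dync1li1 and Kif24, so for these the window ends nearer to the GENCODE start, without reaching it. Capitals mark the GC box GGGCGG, the core of the motif bound by Sp1, or its reverse complement CCGCCC. Dync1li1 (chr9:114688581-114688780, plus strand) has 3 matches, Dynlrb1 (chr2:155236283-155236482, plus strand) has 0 and Kif24 (chr4:41464899-41465098, minus strand) has 2.
Dync1li1: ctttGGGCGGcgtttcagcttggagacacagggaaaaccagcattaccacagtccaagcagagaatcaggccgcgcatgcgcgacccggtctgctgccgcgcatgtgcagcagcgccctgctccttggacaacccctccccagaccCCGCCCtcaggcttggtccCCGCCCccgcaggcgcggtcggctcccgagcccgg
Dynlrb1: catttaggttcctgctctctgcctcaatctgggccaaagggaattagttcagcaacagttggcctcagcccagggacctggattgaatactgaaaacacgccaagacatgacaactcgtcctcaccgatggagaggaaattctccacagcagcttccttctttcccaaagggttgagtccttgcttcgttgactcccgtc
Kif24: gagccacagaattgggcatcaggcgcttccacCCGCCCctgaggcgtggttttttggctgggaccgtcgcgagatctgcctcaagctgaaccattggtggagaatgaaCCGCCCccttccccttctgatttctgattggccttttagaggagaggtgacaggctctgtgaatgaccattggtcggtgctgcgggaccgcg
A match is a description of letters, not a site. Of 62 motor gene promoters, from 55 genes matched by symbol, 46.8% held GGGCGG on either strand in this window, against 24.6% of 32851 mouse promoters. The motor promoters also held more CpG (C followed by G), with a median of 12 against 4. The promoters were not matched for CpG, and its part in the shares was not tested. The window was shortened, first to 250 and then to 200 bases, after the first shares had been seen, to leave out transcribed sequence, and the shares depend on it: with 250 bases they were 59.7% and 32.7%, and with 300 bases 66.1% and 35.7%. Motor genes with 10 counts in every library held it in 38.5, 57.7 and 69.2% of promoters over 200, 250 and 300 bases, and those with 10 counts in 1 to 13 libraries in 60.7, 67.9 and 71.4%, so the gap between the classes shrank from the shortest window to the longest.

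Dynlrb1, the most abundant motor gene, had 399, 618, 326 and 382 CPM in female PiC-PrL, 458, 381, 587 and 1017 in male PiC-PrL, 327, 278 and 315 in female PiC-MeA and 288, 286 and 147 in male PiC-MeA. The male projections did not overlap, and the female projections did. The averaged difference was -0.92 ± 0.28 on the log2 scale and missed the threshold (edgeR adjusted p = 0.0726), as did that in males (-1.35 ± 0.40, adjusted p = 0.0782). With detected genes as a covariate the sign turned, to 0.23 averaged and 0.82 in males.

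Most other well-covered motor genes also had lower values in PiC-MeA, at about the rate of all genes with like coverage. Among the 28 motor genes with 10 counts in every library, 22 had a negative averaged difference and 6 a positive one, with a median log2 difference of -0.46. Among the 3897 genes of any kind that met the same count rule, 2956 were negative, 24.1% were positive and the median was -0.42. The projection differences of females and males share no library, and 16 of the 28 were negative in both sexes and 1, Kif3a, positive in both. The matching share among the 3897 genes of like coverage was not computed, and most of these were negative in the averaged comparison. Over the 58 tested motor genes 56.9% had the same sign in both sexes, beside 49.5% of all genes tested. In all 58, 11 were higher and 8 lower at an unadjusted p under 0.05 in the averaged comparison, where 11.7 and 6.11% of all genes were.

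**Figure D5:**
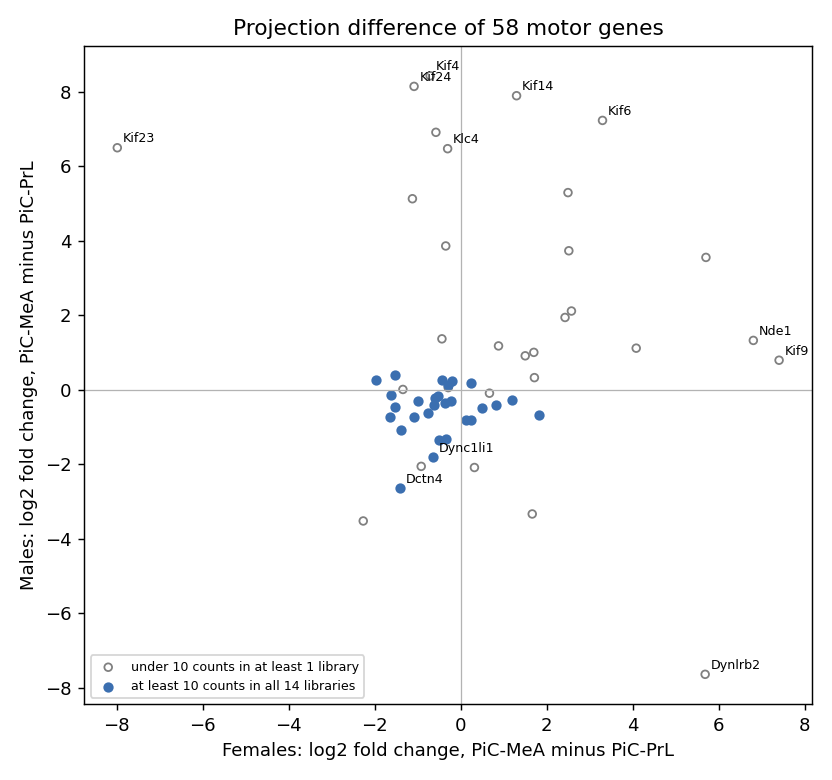
Fitted log2 difference, PiC-MeA minus PiC-PrL, of the 58 tested motor genes in females (x axis) and males (y axis), filled for the 28 genes with 10 counts in every library. Dctn4 and Dync1li1 are the lowest filled points on the male axis, at -2.65 and -1.81. Open points far from 0 belong to genes with few or no counts in a group, whose fitted size depends on the prior count.

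In females 0 motor genes were called for projection (0% of all genes), with 5 higher and 6 lower at an unadjusted p under 0.05 in edgeR, where 5.49 and 5.82% of all genes were. Kif21a, a kinesin-4 motor known for restraining microtubule growth at the cell cortex, had 543, 486, 204 and 392 CPM in female PiC-PrL, 214, 697, 337 and 214 in male PiC-PrL, 150.3, 114 and 161 in female PiC-MeA and 174, 202 and 412 in male PiC-MeA. The 3 female PiC-MeA libraries were below all 4 female PiC-PrL libraries (log2 -1.52 ± 0.50, edgeR adjusted p = 0.397). Kif1b, which carries mitochondria and synaptic vesicle precursors, had 536, 938, 437 and 471 CPM in female PiC-PrL, 421, 411, 356 and 521 in male PiC-PrL, 308, 384 and 202 in female PiC-MeA and 261, 379.7 and 397 in male PiC-MeA. Its female groups did not overlap either (log2 -0.999 ± 0.36, adjusted p = 0.397 by the same test). Nde1, which ties dynein to its regulator Lis1 (Pafah1b1), had 0.0822, 0.199, 0.136 and 0 CPM in female PiC-PrL, 0, 0.175, 9.49 and 0 in male PiC-PrL, 12.7, 20.5 and 4.73 in female PiC-MeA and 5.55, 7.96 and 4.66 in male PiC-MeA. It was near 0 in all 4 female PiC-PrL libraries and in 3 of the 4 male ones, and at least 4.66 CPM in all 6 PiC-MeA libraries (females: log2 6.81 ± 2.48, adjusted p = 0.397). The related regulator Ndel1 was high almost everywhere, at 122, 0.696, 107 and 139 CPM in female PiC-PrL, 75.9, 78.99, 176 and 134 in male PiC-PrL, 167, 142 and 131 in female PiC-MeA and 114, 118 and 93.5 in male PiC-MeA, with 1 library, female PiC-PrL replicate 2, near 0.

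Beside the female projection values, 7 astrocyte markers summed to 270 to 414 CPM in PiC-MeA, with Gjb6 and Aqp4 at 0, and to 702 to 988 CPM in PiC-PrL. By fitted sign, 6 of the 7 were lower and 1 was higher in female PiC-MeA, and 0 were called. The part of these markers in the motor gene values was not tested. Separation of the female projections was seen for 4 motor genes that were higher in PiC-MeA (Dynll1, Kif17, Kifc2 and Nde1), where 4% of all tested genes were, and for 6 that were lower (Dctn4, Kif1b, Kif21a, Kif2a, Kif5b and Kifap3), where 4.44% were. In males 9 were higher without overlap (Kif14, Kif16b, Kif22, Kif23, Kif24, Kif26b, Kif4, Kif6 and Klc4), where 18.8% of all genes were, and 3 were lower (Dctn4, Dync1li1 and Dynlrb1), where 6.79% were. No motor gene separated all 6 PiC-MeA from all 8 PiC-PrL libraries, which 0.932% of all genes did. As shares of the 58 tested motor genes, the counts came to 6.9 and 10.3% in females and 15.5 and 5.17% in males. At an unadjusted p under 0.05, 9 motor genes were higher and 5 lower in males, where 17 and 5.31% of all genes were.

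Several of the genes high in male PiC-MeA are kinesins of cell division. Of 13 division kinesins 6 passed the low-count filter, and 0 were called for projection in males. Kif14 passed through its male PiC-MeA counts alone. Outside male PiC-MeA, Kif4 and Kif23 reached 10 counts in only 1 library each, of female PiC-PrL, and Kif24, given below, in 0. These genes were thus tested because of their male PiC-MeA counts. Their separation and p-values in comparisons with that group are therefore no independent support. Kif14, needed for the end of cell division, had 0, 0.298, 0 and 0.144 CPM in female PiC-PrL, 0, 0.0877, 0 and 0 in male PiC-PrL, 0.717, 0.0712 and 0.0615 in female PiC-MeA and 9.32, 6.81 and 5.56 in male PiC-MeA. The male PiC-MeA values were all above every other library (projection in males, edgeR adjusted p = 0.0774). Kif4, a chromosome-linked kinesin, had 0.0822, 0, 0.746 and 0.0721 CPM in female PiC-PrL, 0, 0.175, 0 and 0 in male PiC-PrL, 0.159, 0 and 0.246 in female PiC-MeA and 2.22, 12.3 and 39.1 in male PiC-MeA, again with the 3 male PiC-MeA libraries highest (adjusted p = 0.0787). No fold is given for these or other genes with 3 or fewer counts in a compared group. Kif24, a kinesin-13 that removes tubulin at the centriole and holds back cilium growth, had 0.658, 0, 0.136 and 0.0721 CPM in female PiC-PrL, 0.185, 0, 0 and 0.0958 in male PiC-PrL, 0.0797, 0.214 and 0 in female PiC-MeA and 6.43, 17.9 and 44.2 in male PiC-MeA, and the projection difference in males was 8.14 ± 2.39 on the log2 scale (adjusted p = 0.0774). With detected genes as a covariate, the fitted signs for Kif4 and Kif24 turned negative in males (log2 -0.19 for Kif24).

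Kif23, a centralspindlin motor, had 31.6, 0, 0 and 0.0721 CPM in female PiC-PrL, 0.123, 0, 0 and 0 in male PiC-PrL, 0, 0 and 0.0615 in female PiC-MeA and 0.592, 7.19 and 3.76 in male PiC-MeA. Most of its counts came from female PiC-PrL replicate 1. Kif22, which moves chromosome arms, had 0.493, 10.6, 0.203 and 0 CPM in female PiC-PrL, 0, 0, 0 and 0 in male PiC-PrL, 0, 3.85 and 1.84 in female PiC-MeA and 0.222, 1.91 and 1.35 in male PiC-MeA, and Kif20b, a kinesin-6, had 16.3, 0, 0.339 and 0.504 CPM in female PiC-PrL, 2.09, 2.28, 4.43 and 3.93 in male PiC-PrL, 1.28, 2.56 and 5.66 in female PiC-MeA and 2.07, 1.68 and 20.9 in male PiC-MeA, each with 1 library far above the rest of a group. Summed over the 13 division kinesins, levels were 1.58 to 76.7 CPM in female PiC-PrL, 2.17 to 13.5 in male PiC-PrL, 7.24 to 64.6 in female PiC-MeA and 18.7 to 105 in male PiC-MeA. The 6 dividing-cell markers summed to 0 to 11.8 CPM in female PiC-PrL, 0 to 0.788 in male PiC-PrL, 3.97 to 32.8 in female PiC-MeA and 6.62 to 17.1 in male PiC-MeA. Plk1 was at 0 in every library, and Mki67, Top2a and Birc5 at 0 in all male PiC-PrL libraries. Top2a was at 0 in female PiC-MeA too, and Cdk1 had counts in both male groups but was at 0 in both female groups. The part of these markers in the kinesin values was not tested. That of the larger number of detected genes in male PiC-MeA was not tested beyond the covariate fit, which cannot tell this number apart from the group.

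Kif6, a kinesin-9 of motile cilia, was the third of the motor genes by p in the averaged projection comparison, at 0.658, 0.895, 1.15 and 0.216 CPM in female PiC-PrL, 0.185, 0, 0 and 0.383 in male PiC-PrL, 20.5, 0.142 and 1.23 in female PiC-MeA and 29.1, 21.9 and 16.5 in male PiC-MeA. It was at least 16.5 CPM in male PiC-MeA and in 1 female PiC-MeA library and at most 1.23 CPM in the others (averaged log2 5.26 ± 1.49, edgeR adjusted p = 0.0596). Kif9, the other kinesin-9, had 0, 0, 0 and 0 CPM in female PiC-PrL, 4.62, 0.0877, 7.62 and 0 in male PiC-PrL, 4.30, 0.641 and 0 in female PiC-MeA and 0.37, 5.89 and 9.77 in male PiC-MeA, and all female PiC-PrL libraries were at 0. The 5 ciliated ependymal markers summed to 5.68 to 39.0 CPM in male PiC-MeA, 0.507 to 26.8 in female PiC-MeA, 0.166 to 6.25 in female PiC-PrL and 0.136 to 2.04 in male PiC-PrL. Rarres2 was at 0 in all but male PiC-MeA, and Foxj1 at 0 in both PiC-PrL groups. Tmem212 instead had counts in both male groups, PiC-PrL among them, and was at 0 in both female groups. The part of these markers in the Kif6 and Kif9 values was not tested.

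Among the 35 motor genes with 10 counts in 1 to 13 libraries, more reached 10 counts in the PiC-MeA libraries of both sexes. The numbers were 13, 6, 14 and 9 in female PiC-PrL and 12, 9, 16 and 6 in male PiC-PrL, against 20, 18 and 23 in female PiC-MeA and 22, 24 and 25 in male PiC-MeA. Every PiC-MeA library was above every PiC-PrL library. As shares, they were 17.1 to 45.7% in PiC-PrL, 51.4 to 65.7% in female PiC-MeA and 62.9 to 71.4% in male PiC-MeA. Over all 17249 genes of that kind the shares were 21.6 to 37.2% in PiC-PrL, 36.1 to 40.1% in female PiC-MeA and 59.5 to 67.4% in male PiC-MeA. This count was looked at after the values were known and has no test.

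Between the sexes, 0 motor genes were called in PiC-PrL, where 0% of all genes were called. At an unadjusted p under 0.05, 2 were higher and 4 lower in males, where 5.57 and 8.87% of all genes were in edgeR. Klc4, a kinesin light chain, had 0.247, 0.199, 23.3 and 133 CPM in female PiC-PrL, 0.0616, 0, 0 and 0.192 in male PiC-PrL, 23.8, 41.5 and 30.3 in female PiC-MeA and 16.7, 1.15 and 0.902 in male PiC-MeA. The 4 male PiC-PrL libraries together held 3 counts, and the 2 high female libraries were replicates 3 and 4 (edgeR adjusted p = 0.282). Klc4 was the 1 motor gene whose male PiC-PrL values were all below the female ones, where 1.93% of all genes were, and the nearest values were 0.192 and 0.199 CPM. For 0 motor genes were they all above, where 1.41% of all genes were. Kif22 and Kif9, given above, were next by p (adjusted p = 0.282 for each by the same test). Kif22 was at 0 in all male PiC-PrL libraries, and Kif9 at 0 in all female ones.

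In PiC-MeA, too, 0 motor genes were called for sex (0% of all genes), and 4 were higher and 4 lower in males at an unadjusted p under 0.05, where 10.4 and 2.06% of all genes were. Klc1, the main light chain, had 407, 476, 546 and 639.5 CPM in female PiC-PrL, 657, 353, 314 and 531 in male PiC-PrL, 632, 662 and 400.5 in female PiC-MeA and 409.6, 205 and 178 in male PiC-MeA. The male mean of 264 ± 127 CPM (n = 3) was under the female mean of 565 ± 143 CPM (n = 3), but male replicate 1 overlapped female replicate 3 (log2 -1.10 ± 0.40, edgeR adjusted p = 0.305). Kif24 and Kif4 led this comparison in the other direction (adjusted p = 0.293 and 0.317 by the same test). As given above, both were tested because of their male PiC-MeA counts, so these p-values are no independent support. Male values lay above female ones without overlap for 6 motor genes (Kif14, Kif21a, Kif23, Kif24, Kif26b and Kif4), where 17.6% of all genes did. The same limit holds for the separation of Kif14, Kif23, Kif24 and Kif4. Male values lay below for 8 (Dctn1, Dync1li1, Dynll1, Kif3a, Kif3c, Kifc2, Klc4 and Ndel1), where 8.88% of all genes did. Dynll1 in females and males of PiC-MeA was at 821 ± 163 and 445 ± 185 CPM.

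Markers of other cell types moved with sex in PiC-MeA. The 7 astrocyte markers summed to 1201 to 1449 CPM in males, against 270 to 414 CPM in females. The 5 endothelial and mural markers summed to 20.9 to 98.2 CPM in males and 0.389 to 2.75 CPM in females, with Cldn5 at 0 in both. For 9 inhibitory neuron markers the sums were 168 to 2132 CPM in males and 43.5 to 145 CPM in females, with Slc32a1 at 0 in females. By fitted sign, 6 of 7 astrocyte, 7 of 9 inhibitory neuron and 4 of 4 tested endothelial and mural markers were higher in males, and 0 were called. Sums of the excitatory neuron, oligodendrocyte lineage and microglia lists overlapped between the sexes. The part of these cell types in the motor gene values was not tested.

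Averaged over both projections, 0 motor genes were called for sex, where 0.0137% of all genes were. At an unadjusted p under 0.05, 2 were higher and 3 lower in males, where 7.58 and 3.1% of all genes were, and Klc4, Kif9 and Kif22 had the smallest p (edgeR adjusted p = 0.273, 0.327 and 0.343). For the interaction, the projection difference of males minus that of females, 0 were called (0% of all genes), with 6 positive and 3 negative at an unadjusted p under 0.05, where 12 and 3.75% of all genes were. Kif23, Dynlrb2 and Kif24 led (edgeR adjusted p = 0.150, 0.150 and 0.166). Kif23 and Kif24 were tested because of their male PiC-MeA counts, as given above, so their p-values here are no independent support. Dynlrb2, the second roadblock light chain, had 0, 0, 0 and 0.0721 CPM in female PiC-PrL, 0.0616, 0, 7.69 and 0 in male PiC-PrL, 1.99, 0 and 2.40 in female PiC-MeA and 0, 0 and 0 in male PiC-MeA, so that 3 libraries carried its counts.

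The leading genes of the remaining roles were not called in any comparison. Kif5c, the leading kinesin-1 motor, had 298, 416, 205 and 534 CPM in female PiC-PrL, 272, 699.5, 293 and 737 in male PiC-PrL, 175, 395 and 141 in female PiC-MeA and 385, 374 and 373 in male PiC-MeA, with its 2 highest values in male PiC-PrL replicates 2 and 4. Kif3a, which with Kif3b and Kifap3 forms the kinesin-2 motor of axons and cilia, had 325, 430.1, 411 and 173 CPM in female PiC-PrL, 191, 135, 209 and 369 in male PiC-PrL, 367, 459 and 359 in female PiC-MeA and 311, 277 and 179 in male PiC-MeA. Kif1a, the main carrier of synaptic vesicle precursors, had 502, 505, 245 and 969.8 CPM in female PiC-PrL, 235, 900.4, 498 and 599 in male PiC-PrL, 253, 335 and 204 in female PiC-MeA and 602, 244 and 153 in male PiC-MeA (averaged projection log2 -0.91 ± 0.38, edgeR adjusted p = 0.196). In these 3 genes the groups overlapped between the projections of each sex.

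Kif2a, a kinesin-13 that takes apart microtubule ends, had 187, 266, 109 and 158 CPM in female PiC-PrL, 112, 74.9, 190.1 and 412 in male PiC-PrL, 32.8, 104 and 69.6 in female PiC-MeA and 71.6, 96.7 and 112 in male PiC-MeA (averaged projection log2 -1.23 ± 0.43, edgeR adjusted p = 0.122). Kifc2, a minus-end directed kinesin-14 of neurons, had 69.2, 1.29, 37.5 and 27.7 CPM in female PiC-PrL, 33.1, 19.6, 71.96 and 168 in male PiC-PrL, 108, 75.6 and 178 in female PiC-MeA and 65.2, 46.2 and 24.3 in male PiC-MeA. Its female PiC-MeA values were above all female PiC-PrL values, but those of male PiC-MeA lay within the male PiC-PrL range. Dctn6, at the pointed end of dynactin with Dctn4, had 128, 89.6, 115 and 243 CPM in female PiC-PrL, 156, 221, 144 and 24.2 in male PiC-PrL, 156, 131 and 80.2 in female PiC-MeA and 86.8, 119 and 125 in male PiC-MeA, and its groups overlapped. Kif26b, an atypical kinesin-11, had 40.9, 0.0995, 2.64 and 11.7 CPM in female PiC-PrL, 4.19, 9.29, 2.29 and 0 in male PiC-PrL, 16.5, 14.03 and 2.15 in female PiC-MeA and 57.8, 43.1 and 70.8 in male PiC-MeA, with the 3 male PiC-MeA libraries highest. Kif28, of unassigned role here, had 0.0822, 0.0995, 0 and 0 CPM in female PiC-PrL, 0, 1.23, 0.0693 and 0 in male PiC-PrL, 0.0797, 0 and 0.799 in female PiC-MeA and 10.7, 0.459 and 1.95 in male PiC-MeA, with counts mainly in male PiC-MeA replicate 1.

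By role, the signs of the averaged projection difference were mixed. Negative values were found for 4 of the 5 dynactin genes tested, 5 of 7 dynein heavy, intermediate and light intermediate chain genes, 7 of 8 dynein light chain genes, 3 of 3 kinesin-1 heavy chains and 3 of 5 kinesin-4 genes. Positive values were found for 2 of 3 kinesin light chain genes, 3 of 5 kinesin-2 genes, 5 of 7 kinesin-3 genes, 3 of 4 genes of kinesin-5, -6, -10 and -12, 3 of 3 of kinesin-9 and -11, 2 of 2 of kinesin-14 and 2 of 3 dynein regulators. For kinesin-8 and kinesin-13, 1 was positive and 1 negative. Over all 58 tested motor genes 28 were positive and 30 negative, beside 7290 and 7309 of all genes, and well-covered genes of any kind were mostly negative, as given above. The 2 called genes, Dctn4 and Dync1li1, were those of dynactin and of the dynein chains, and the other roles held 0.

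Other genes of motor transport, a list of adaptors, cargo linkers and further dynactin subunits with 39 symbols in the table (40 rows, as 1 symbol has 2 rows), held 37 tested genes, and 0 of these were called in any of the 7 comparisons. In the averaged projection comparison 14 were positive and 23 negative, with a median log2 difference of -0.15. Over all genes 7290 of 14599 were positive, with a median of -0.00194. Well-covered genes of any kind were mostly negative in this comparison, as given above. The list was not set against genes of like coverage, so its signs do not show a shift of its own. At an unadjusted p under 0.05, 1 of the 37 was higher and 3 were lower, where 11.7 and 6.11% of all genes were. Mapre1, the plus-end binding protein EB1, was closest to the threshold (log2 -1.12 ± 0.31, edgeR adjusted p = 0.0564). Its libraries ran from 184 to 447 CPM in female PiC-PrL, 177 to 530 in male PiC-PrL, 125 to 140 in female PiC-MeA and 147 to 169 in male PiC-MeA, so that the 6 PiC-MeA libraries were all below the 8 PiC-PrL libraries. Of all genes, 0.932% separated the projections without overlap in either direction. Capza2, a capping protein subunit at the barbed end of dynactin, was next (log2 -0.68 ± 0.22, adjusted p = 0.0887).

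Some values rest on reads that cannot be assigned with certainty. The light chain genes Dynlt1a, Dynlt1b, Dynlt1c and Dynlt1f are near-identical copies, as are Kifc1 and Kifc5b, and how shared reads were counted is not known here. Nor is the strand setting of the counting, so for genes whose exons overlap a gene on the opposite strand, such as Kif4, Kif2a, Kif3c, Kif7, Kif20a, Kifc3 and Klc3, reads of the pair cannot be told apart.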

How the data were processed

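The authors deposited 1 table of raw counts per gene, with 1 column per library and no pooling or normalisation. Per the submitters' processing notes, Trimmomatic 0.39, HISAT2 2.2.1, SAMtools and featureCounts 2.0.1 were used with the build mm10. The annotation release and the strand setting were not stated in any source at hand. Exon lengths and positions came from GENCODE M21, which matched 55141 of 55401 genes.

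The members, role groups and gene lists were chosen with earlier results of these data known. Counts were filtered with filterByExpr (minimum count 10, minimum total 15), scaled by TMM and fitted over all 14 libraries with edgeR 4.0.16 in R 4.3.3 (robust quasi-likelihood, 1 mean per group). Benjamini-Hochberg adjustment ran over all 14599 genes tested, and a gene was called at an adjusted p under 0.05. SE was the log2 fold change divided by the root of the F statistic. The 7 comparisons were sex in each projection, projection in each sex, both averages and the difference between the sex differences.

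Values in every library are given for 26 genes, chosen by rule: those called, the 3 with the smallest p in each comparison and the member of each role with the highest mean TPM. Further contrasts of Dctn4, Dync1li1, Kif24, Kif4 and Dynlrb1, genes listed for not overlapping and single genes named for a level, a share or a range were added after values were seen. Alternatives were DESeq2 1.42.0 size factors or Wald test, limma 3.58.1 voom with quality weights, no low-count filter, the replicate number as a block, detected genes as a covariate and leaving out libraries. Intervals of single libraries are not given, and the number of counts limits precision by counting error only.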

Additional observations from a re-analysis of the deposited data

Results flagged for a closer look

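In 11 cases 1 library stood far from the other 3 of its PiC-PrL group, by Dixon's rule on CPM, among 50 groups of 4 libraries checked for the 26 genes. For normally distributed values chance flags about 1 group in 20, a rate that does not hold for counts near 0. In 4 cases the other 3 libraries were at 0, so that any count set the library apart.

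The larger values were Kif23 at 31.6 CPM in female PiC-PrL replicate 1, Kif20b at 16.3 CPM in the same library, Kif22 at 10.6 CPM in female PiC-PrL replicate 2, Nde1 at 9.49 CPM and Dynlrb2 at 7.69 CPM in male PiC-PrL replicate 3, and Kif28 at 1.23 CPM in male PiC-PrL replicate 2. The other 3 libraries of each group were at most 0.504 CPM. Very low values made up the rest: Kif4 at 0.746 CPM in female PiC-PrL replicate 3 and 0.175 CPM in male PiC-PrL replicate 2, Kif14 at 0.0877 CPM in male PiC-PrL replicate 2, Kif23 at 0.123 CPM in male PiC-PrL replicate 1 and Dynlrb2 at 0.0721 CPM in female PiC-PrL replicate 4. Each of these 5 rests on 11 or fewer counts.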

How the results depend on the processing

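Numbers of called motor genes moved with the test. The DESeq2 Wald test called 2 for sex in PiC-PrL, 2 for sex in PiC-MeA, 1 for projection in females, 10 for projection in males, 1 for the averaged sex difference, 7 for the averaged projection difference and 3 for the difference between the sex differences. limma voom called 6 for sex in PiC-MeA, 10 for projection in males, 8 for the averaged projection difference and 2 for the difference between the sex differences. Dctn4 and Dync1li1 were among those called by both tests for projection in males and averaged. Both tests also called many more genes of any kind there, as given below. With each library left out in turn, the counts were 0 to 2 for projection in males and 0 to 2 for the averaged projection difference, and 0 in the other 5 comparisons. For projection in males and averaged, the replicate block gave 0 and 0, and the covariate 0 and 0. DESeq2 size factors and no filter each gave 1 for the averaged projection difference, Dctn4, and no filter called Dctn4 in place of Dync1li1 in males (adjusted p = 0.000212 for Dctn4).

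Same-numbered libraries had residual correlations near 0 (19 pairs, r from -0.0379 to 0.0408, median 0.0153). Pairs with other numbers ran from -0.0827 to 0.0662 (54 pairs, median -0.00329). With so few cells per tube, such values cannot exclude that the numbers pair the tubes. Under the block the calls over all genes moved from 108 to 43 for projection in males and from 165 to 43 averaged. Over all genes, DESeq2's Wald test called 1017, 777, 628, 2022, 631, 1492 and 1175 genes in the 7 comparisons in the order above, voom 8, 1749, 28, 2571, 3, 1071 and 620, no filter 38, 45, 46, 159, 17, 452 and 84, and the covariate 0 in each, against 0, 0, 0, 108, 2, 165 and 0. The direction of the calls moved too: for projection in males 9 genes were higher and 99 lower, against 1476 and 546 with the DESeq2 Wald test and 2094 and 477 with voom. With DESeq2 size factors the averaged projection count was 83. Leaving out 1 library gave 21 to 139 for projection in males and 39 to 128 averaged, at most 14 for sex in PiC-MeA and at most 5 in the remaining ones. Size factors moved the median log2 difference of all genes from 0.10 to 0.21 for projection in males.

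All reversed values came from the detected-gene covariate: Kif4 for sex in PiC-MeA (-0.78), Kif23 and Dctn4 for the difference between the sex differences (-17.62 and 0.38), Kif24, Kif4 and Dynlrb1 for projection in males (-0.19, -2.25 and 0.82) and Dynlrb1 averaged (0.23). The values of Kif4 and Kif23 rest on 3 or fewer counts in a compared group, depend on the prior count and are no fold. Detected-gene number was highest in the male PiC-MeA libraries, so the covariate cannot be told apart from that group. The cause of the reversals was not tested. Dynlrb2 could not be fitted without male PiC-PrL replicate 3, since it failed the filter. The share of motor promoters with GGGCGG moved to 59.7% and 66.1% in the longer windows, which were added after seeing the data.

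Tubes of 4 to 5 cells, 3 or 4 per group, limit the precision: Kif23 ran from 0 to 31.6 CPM within 1 group. A gene not called here is not shown to be equal between groups.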
